A study of Rattus norvegicus with 16 samples.

Results

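Expression of 10 Z-disc and stretch-response genes of heart muscle was examined in the left ventricle (LV) of adult male Sprague-Dawley rats with volume overload (VO). The genes were Ankrd1, Ankrd2, Csrp3, Fhl1, Fhl2, Xirp1, Xirp2, Des, Tcap and Ldb3, and every probe set of the array whose annotation gives exactly 1 of these symbols was taken. Of the 10 genes, 9 had at least 1 such probe set, and Xirp2 had none, so that no value is given for it. The 9 genes had 18 probe sets among 31042 that are not control probe sets of the manufacturer, with 2 for Ankrd1, 3 for Fhl1, 2 for Fhl2, 6 for Ldb3 and 1 for each of the others. For tests, the probe set with the highest mean over all arrays stood for a gene, which gave 9 genes among 14218.

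VO was created by an aortocaval fistula (ACF), a shunt between the abdominal aorta and the inferior vena cava that returns blood to the heart and stretches its chambers. The groups were control, ACF 8 weeks, ACF 16 weeks and ACF 24 weeks, with 4 arrays each, and the labels name no allele or drug in any group. By the times used in the study, 8 weeks is the phase of compensated hypertrophy (CH) and 16 weeks that of heart failure (HF). The labels call the control group baseline while the methods speak of sham controls, so that age and surgery cannot be told apart from ACF in any comparison with control, and the descriptions of the arrays titled 24 weeks read 24, 25, 26 and 27 weeks.

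The Z-disc is the protein plate at each end of a sarcomere, where actin filaments of neighbouring sarcomeres are crosslinked by alpha-actinin and where titin is anchored. It is also a place where heart muscle cells sense stretch: proteins bound to titin or to alpha-actinin move between the sarcomere and the nucleus or change in amount when load changes. Transcripts of the ankyrin repeat proteins of this site are widely used as markers of a loaded ventricle, and mutations in several of the genes listed here cause cardiomyopathy or skeletal myopathy.

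Each value is a log2 intensity minus the median of its array, called centred below, so that a difference of 1 between groups is a doubling. Differences and the amounts by which a gene rose or fell are on this log2 scale unless written as fold (2.50-fold). Array medians fell into 2 ranges, called levels here, from 6.13 to 6.17 in 9 arrays (all of control, replicates 1, 3 and 4 at 8 weeks and replicates 1 and 2 at 16 weeks) and from 5.92 to 5.96 in 7 arrays (replicate 2 at 8 weeks, replicates 3 and 4 at 16 weeks and all at 24 weeks). The labels name no reason for the levels, and no batch is given. Arrays that RMA normalises together end with nearly 1 median, and whether the arrays of both levels were normalised together is not given in the sources used here, so that a difference between arrays of unlike level can hold a difference of normalisation, which was not tested. The tissue carried its markers, since all 14 measured markers of ventricular cardiomyocytes lay above the array median on every array. Of 7 markers of skeletal muscle, Myh1 alone did so. No pair of arrays held identical values. P-values set a difference between group means against the spread between these arrays.

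Promoter windows of 250 bases upstream of annotated starts are shown for the genes that rose in the HF phase, Ankrd2 and Fhl1, and for 2 others with a CArG box, the binding motif of serum response factor. The windows are from RefSeq on GRCr8, were matched by symbol for 7 of the 10 genes (11 windows), and are written 5′ to 3′ on the strand of the gene. Ankrd1, Csrp3 and Tcap had no window. Capitals mark every match, on either strand, to the muscle motif of TEAD factors with the letters CATTCC, to the motif of GATA factors with the letters AGATAA, to the box with the letters TATAAA, to the CArG box or to the MEF2 site. Matches to the MEF2 site and to TATAAA can overlap.
Ankrd2, chr1:250796169-250796418, plus strand: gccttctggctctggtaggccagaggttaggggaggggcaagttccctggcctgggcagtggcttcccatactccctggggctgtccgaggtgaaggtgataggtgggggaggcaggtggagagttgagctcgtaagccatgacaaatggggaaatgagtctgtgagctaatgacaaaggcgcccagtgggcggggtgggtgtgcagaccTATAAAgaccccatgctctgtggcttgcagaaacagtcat
Fhl1, first window, chrX:139638246-139638495, plus strand: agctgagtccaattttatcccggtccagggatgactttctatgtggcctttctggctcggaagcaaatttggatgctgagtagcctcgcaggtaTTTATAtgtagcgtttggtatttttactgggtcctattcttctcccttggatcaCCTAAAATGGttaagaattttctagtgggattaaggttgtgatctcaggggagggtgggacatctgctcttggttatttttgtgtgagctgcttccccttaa
Fhl1, second window, chrX:139645222-139645471, plus strand: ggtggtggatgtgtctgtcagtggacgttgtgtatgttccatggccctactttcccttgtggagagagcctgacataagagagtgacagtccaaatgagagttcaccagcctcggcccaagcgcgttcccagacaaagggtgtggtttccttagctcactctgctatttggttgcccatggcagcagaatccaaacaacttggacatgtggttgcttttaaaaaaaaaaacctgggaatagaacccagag
Fhl2, chr9:52954541-52954790, minus strand: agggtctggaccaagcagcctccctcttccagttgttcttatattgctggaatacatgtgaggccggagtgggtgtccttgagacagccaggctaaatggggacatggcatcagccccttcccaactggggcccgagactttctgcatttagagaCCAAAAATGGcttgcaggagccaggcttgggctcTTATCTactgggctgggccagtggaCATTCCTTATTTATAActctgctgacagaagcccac
Ldb3, chr16:9924680-9924929, minus strand: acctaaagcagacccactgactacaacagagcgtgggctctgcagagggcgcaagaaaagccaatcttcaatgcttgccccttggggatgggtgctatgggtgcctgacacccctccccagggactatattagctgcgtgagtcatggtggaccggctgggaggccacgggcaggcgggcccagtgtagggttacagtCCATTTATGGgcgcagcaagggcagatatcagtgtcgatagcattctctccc
The Ankrd2 window ends 1 base before the annotated gene and holds TATAAA, ending 34 bases before the start. Both Fhl1 windows lie inside the annotated span of the gene, at internal starts, and the first holds a CArG box that ends 92 bases before its start. The Ldb3 window also lies inside the annotated span of its gene, and its CArG box ends 42 bases before this internal start. In the Fhl2 window shown, the CArG box ends 85 bases before the start. Another Fhl2 window, not shown, holds a CArG box that ends 48 bases before its own start. A CArG box was found in 4 of the 11 windows (Fhl1, Fhl2 and Ldb3) and in 1.5% of all 33469 windows of this length. The MEF2 site was found in 4 windows (Fhl2, Xirp1 and Xirp2, of which those of Xirp1 overlap) and in 2.96% of all. TATAAA was found in 3 windows and 12.9% of all, AGATAA in 2 and 10.3%, CATTCC in 1 and 12.1%, and the E-box CANNTG, not marked, in 8 and 65.5%. These are matches of letters and not measured binding.

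In the HF phase, 2 of the 9 measured genes rose against control, Ankrd2 by 2.50-fold and Fhl1 by 1.98-fold, and none fell. Among all genes, 5.83% rose and 3.26% fell (adjusted p under 0.05, limma), and 2 of 9 genes is a count too small to set a share against. The split of all calls depends on the scaling, with 829 genes higher and 463 lower (64.2% higher) here, 359 and 1006 (26.3%) for arrays as deposited, and 706 and 714 (49.7%) with arrays centred on the median over genes. Without centring, the median over all genes lay at -0.12 at 16 weeks and -0.21 at 24 weeks, and Ankrd2 and Fhl1 rose at 16 weeks under each of these scalings. Ankrd1 and Csrp3 had higher means (log2 differences of 0.29 and 0.28), Fhl2, Tcap and Ldb3 had lower means (-0.27, -0.35 and -0.23), and none of these 5 passed the test. With the 2 that rose, 7 of the 9 had an unadjusted p under 0.05 in limma, against 3459 of all 14218 genes. The 16-week arrays lay entirely above the control arrays for 3 genes, Ankrd1, Ankrd2 and Fhl1, as for 10.1% of all genes, and entirely below for 2, Fhl2 and Tcap, as for 6.32% of all genes.

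In the CH phase, none of the 9 genes passed the test in limma, where 0.0492% of all genes rose and 0.00703% fell. Tcap alone of the 9 had an unadjusted p under 0.05 in limma, and 1112 of all 14218 genes did. By the methods' test (unpaired, equal variance) Fhl1 (unadjusted p = 0.0246) and Ldb3 (0.0322) did, and none passed after adjustment. By the methods' threshold too, none of the 9 passed at 8 or 24 weeks. None of the 9 lay entirely above control (3.43% of all genes did), and Ldb3 lay entirely below (2.73% of all did). At 24 weeks, none passed in limma or by the methods' test after adjustment, against 0.612% of all genes that rose and 0.295% that fell. In limma Fhl1 alone of the 9 had an unadjusted p under 0.05, and 2306 of all 14218 genes did. By the methods' test Fhl1 (unadjusted p = 0.0217), Fhl2 (0.0251) and Csrp3 (0.047) did. How many of all genes met this cut by the methods' test was not counted at 8 or 24 weeks. None of the 9 separated from control, while 4.82% of all genes lay above and 4.46% below. The 3 comparisons use the same 4 control arrays, so they are not independent of each other.

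**Figure D1:**
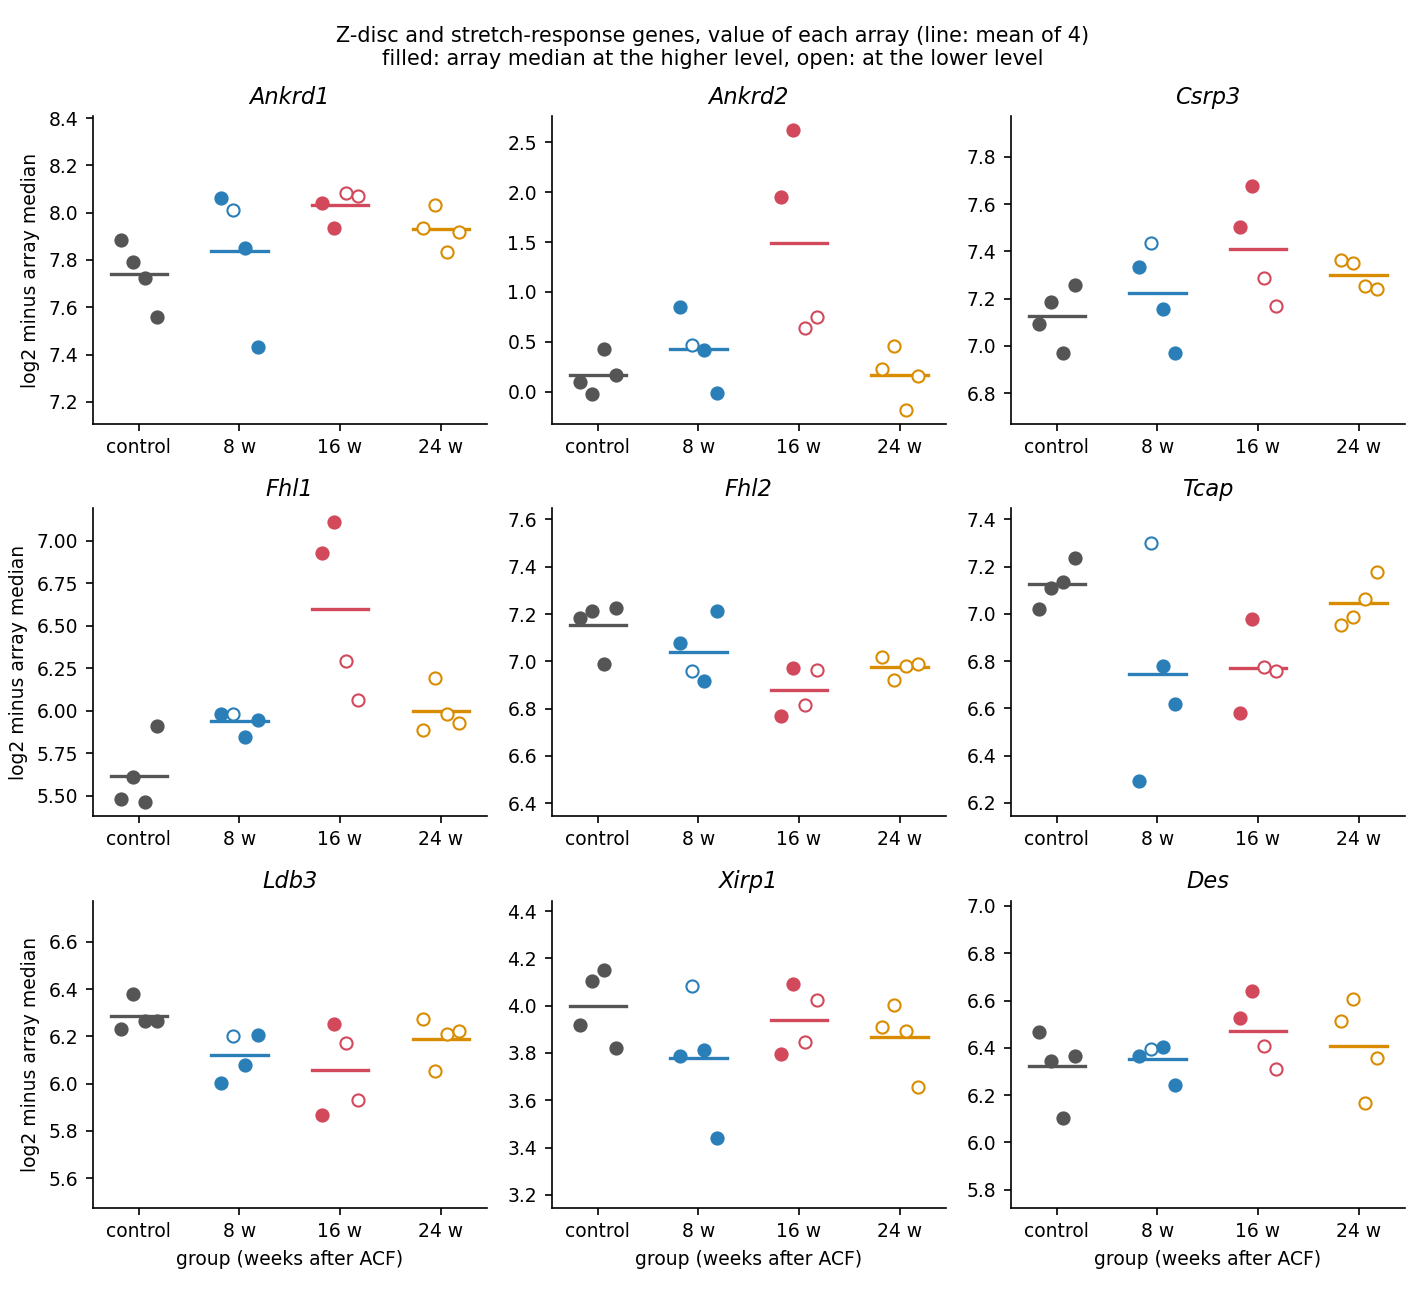
Centred log2 value (vertical axis, scaled per panel) of the 9 measured genes, array by array, with groups along the horizontal axis; lines are means of 4 arrays, filled points are arrays at the higher level and open points arrays at the lower level. Ankrd2 and Fhl1 at 16 weeks lie above control, with replicates 1 and 2 highest at 1.95 and 2.62 for Ankrd2 and 6.93 and 7.11 for Fhl1.

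Ankrd2 (gene ID 309374) encodes a muscle ankyrin repeat protein that binds titin in the I-band and is known mainly from slow skeletal muscle. In control, the centred values of its probe set were 0.10, -0.03, 0.43 and 0.16. At 8 weeks they were 0.85, 0.47, 0.42 and -0.02, a range that takes in most of the control values. At 16 weeks they were 1.95, 2.62, 0.64 and 0.75, all above every control value, with replicates 1 and 2 far above replicates 3 and 4. At 24 weeks they were 0.23, 0.46, -0.18 and 0.15, with 2 inside the control range, replicate 2 just above it and replicate 3 below. The log2 fold change against control was 1.32 at 16 weeks (SE 0.33, 95% interval 0.63 to 2.01, adjusted p = 0.0184, limma, n = 4), 0.26 at 8 weeks (SE 0.33, adjusted p = 0.935) and -0.0019 at 24 weeks (SE 0.33, adjusted p = 0.999). The 24-week value became 0.89 with the array level as a block (SE 0.39, adjusted p = 0.343). At 16 weeks p was 0.0286 by exact permutation of the 8 arrays (two-sided), the smallest value that 4 against 4 can give. The call at 16 weeks was lost without control replicate 1 (adjusted p = 0.0525), control replicate 2 (0.0519) or ACF 16 weeks replicate 1 (0.0647), where the log2 fold changes were 1.30, 1.26 and 1.17. It was also lost in limma on control and 16 weeks alone (0.059), and by the methods' test (unpaired, equal variance) once Benjamini-Hochberg adjustment was added (0.195). The methods state no adjustment over genes for the arrays. For multiple groups they name analysis of variance with Bonferroni's post hoc test, which was not computed here. By their array threshold, a fold change above 1.5 with an unadjusted p under 0.05, Ankrd2 passed at 16 weeks. It did so with the p of limma and with that of the methods' test.

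Ankrd1 (gene ID 27064), the cardiac ankyrin repeat protein, binds titin and acts as a nuclear cofactor, and its transcript is known to rise with load. The centred values in control were 7.89, 7.79, 7.72 and 7.56, and at 8 weeks 8.06, 8.01, 7.85 and 7.43. At 16 weeks they were 8.04, 7.93, 8.09 and 8.07, and at 24 weeks 7.93, 8.03, 7.83 and 7.92. The 16-week arrays all lay above control and were close together (SD 0.07, against 0.29 at 8 weeks), while the 8-week and 24-week arrays overlapped control. The log2 fold change was 0.29 at 16 weeks (SE 0.12, adjusted p = 0.136), 0.10 at 8 weeks (SE 0.12, adjusted p = 0.934) and 0.19 at 24 weeks (SE 0.12, adjusted p = 0.462). The other probe set of Ankrd1 gave 0.20 at 16 weeks, again with all 4 arrays above control. At 24 weeks it gave 0.14 (adjusted p = 0.477 over all probe sets, limma), and there too all 4 arrays lay above control, unlike the first probe set. The deposited log2 values of the probe set that stood for Ankrd1 ran from 13.6 to 14.2. These are close to the highest value of any probe set on the arrays (14.4 to 14.7). Whether the signal there still follows the amount of RNA was not tested. Nor was it tested for Csrp3, Fhl2 and Tcap, with centred control means of 7.13, 7.15 and 7.12, against 7.74 for Ankrd1.

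Fhl1 (gene ID 25177) encodes a LIM-only protein that binds titin at the N2B region of the I-band and is known for its place in stretch sensing and in skeletal myopathies. The centred values of the probe set that stood for it in control were 5.48, 5.61, 5.47 and 5.91, and at 8 weeks 5.98, 5.98, 5.85 and 5.95. At 16 weeks they were 6.93, 7.11, 6.29 and 6.06, all above control, and at 24 weeks 5.89, 6.19, 5.98 and 5.93. The highest control array (replicate 4) reached into the ranges at 8 and 24 weeks and stayed under that at 16 weeks. The log2 fold change was 0.98 at 16 weeks (SE 0.18, 95% interval 0.60 to 1.36, adjusted p = 0.00339), 0.32 at 8 weeks (SE 0.18, adjusted p = 0.73) and 0.38 at 24 weeks (SE 0.18, adjusted p = 0.304). The group means ran in the order control, 8 weeks, 24 weeks and 16 weeks, and the neighbours 8 and 24 weeks overlapped. Leaving out any single array kept the call at 16 weeks, with log2 fold changes from 0.81 to 1.16. The methods' test with the added adjustment ended it (adjusted p = 0.122), while Fhl1 passed at 16 weeks by the methods' own threshold with either p. Blocking on the array level, the 24-week value was 0.84 (SE 0.22, adjusted p = 0.131).

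The other probe sets of Fhl1 differed from each other. The second gave centred values of 3.00, 2.68, 2.23 and 3.34 in control and 5.14, 4.81, 3.72 and 3.27 at 16 weeks. Replicate 4 at 16 weeks lay within the control range, and the log2 fold change was 1.42 (SE 0.33, adjusted p = 0.019 over all probe sets). The third lay below the array median on every array, from -2.12 to -1.67, and gave 0.07 at 16 weeks. Which transcripts each probe set detects is not given in the sources used here.

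Fhl2 (gene ID 63839), the LIM-only protein of the same family that is most used in heart muscle and that holds metabolic enzymes at the sarcomere, had lower means at all times after ACF. The centred values were 7.18, 7.21, 6.99 and 7.23 in control and 6.77, 6.97, 6.82 and 6.96 at 16 weeks. All 16-week arrays lay under the lowest control array, replicate 3, with replicates 2 and 4 close under it. At 8 weeks the values were 7.08, 6.96, 6.92 and 7.21 and at 24 weeks 7.02, 6.92, 6.98 and 6.99, overlapping control. The log2 fold change at 16 weeks was -0.27 (SE 0.09, adjusted p = 0.0638, exact permutation p = 0.0286), and it passed the threshold under 5 alternatives. These were arrays as deposited (-0.39, adjusted p = 0.0359), arrays centred on the median over genes (-0.32, adjusted p = 0.0321), trended and robust variance (adjusted p = 0.0347), array weights (0.0417) and the upper 50% of genes (0.044). Without centring it passed at 24 weeks too (-0.38, adjusted p = 0.0395). The second probe set of Fhl2 gave -0.37 (adjusted p = 0.0923 over all probe sets).

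Csrp3 (gene ID 117505) encodes muscle LIM protein, a Z-disc protein that binds Tcap and alpha-actinin and is needed for normal myofibre architecture. Its centred values were 7.09, 7.19, 6.97 and 7.26 in control, 7.33, 7.43, 7.16 and 6.97 at 8 weeks, 7.51, 7.67, 7.29 and 7.17 at 16 weeks and 7.36, 7.35, 7.25 and 7.24 at 24 weeks. Replicates 1 and 2 at 16 weeks were the highest of all 16 arrays, and replicate 4 lay within the control range. Against control the difference was 0.28 at 16 weeks (SE 0.12, adjusted p = 0.151), 0.10 at 8 weeks and 0.18 at 24 weeks.

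Tcap (gene ID 688173), or telethonin, caps the ends of titin molecules at the Z-disc. The centred values were 7.02, 7.11, 7.13 and 7.23 in control and 6.58, 6.98, 6.77 and 6.76 at 16 weeks. At 8 weeks they were 6.29, 7.30, 6.78 and 6.62, so that replicate 2, the array at the lower level, was the highest of all 16 while the other 3 lay under every control array. At 24 weeks they were 6.95, 6.99, 7.06 and 7.18, overlapping control. Differences from control were -0.38 at 8 weeks (SE 0.15, adjusted p = 0.533), -0.35 at 16 weeks (SE 0.15, adjusted p = 0.169) and -0.08 at 24 weeks (SE 0.15, adjusted p = 0.848). With higher-level arrays alone, the 8-week value was -0.56 (adjusted p = 0.141), and without centring the 16-week value passed (-0.47, adjusted p = 0.0471). With the level as a block the 24-week value was -0.39 (adjusted p = 0.451).

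Ldb3 (gene ID 498587), also called ZASP or Cypher, is a PDZ and LIM protein that ties alpha-actinin to the Z-disc. The probe set that stood for it had centred values of 6.23, 6.38, 6.27 and 6.27 in control, 6.004, 6.20, 6.08 and 6.20 at 8 weeks, 5.87, 6.25, 6.17 and 5.93 at 16 weeks and 6.27, 6.05, 6.21 and 6.22 at 24 weeks. All 4 arrays at 8 weeks lay under control, and replicate 2 at 16 weeks fell within it. Fold changes on the log2 scale were -0.16 at 8 weeks (SE 0.10, adjusted p = 0.749), -0.23 at 16 weeks (SE 0.10, adjusted p = 0.147) and -0.10 at 24 weeks (SE 0.10, adjusted p = 0.666). All 6 probe sets of Ldb3 had lower means than control at 16 weeks, with log2 fold changes from -0.49 to -0.17. The probe set at -0.17 lay below the array median on every array, from -2.29 to -1.79. Of the 6, 1 passed over all probe sets (-0.49, SE 0.12, adjusted p = 0.0261). Its values lay near the array median, at 0.82, 0.71, 0.39 and 0.63 in control and -0.03, 0.14, 0.25 and 0.24 at 16 weeks. With the mean of its 6 probe sets in place of the brightest, Ldb3 passed at 16 weeks (-0.30, adjusted p = 0.0332).

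**Figure D2:**
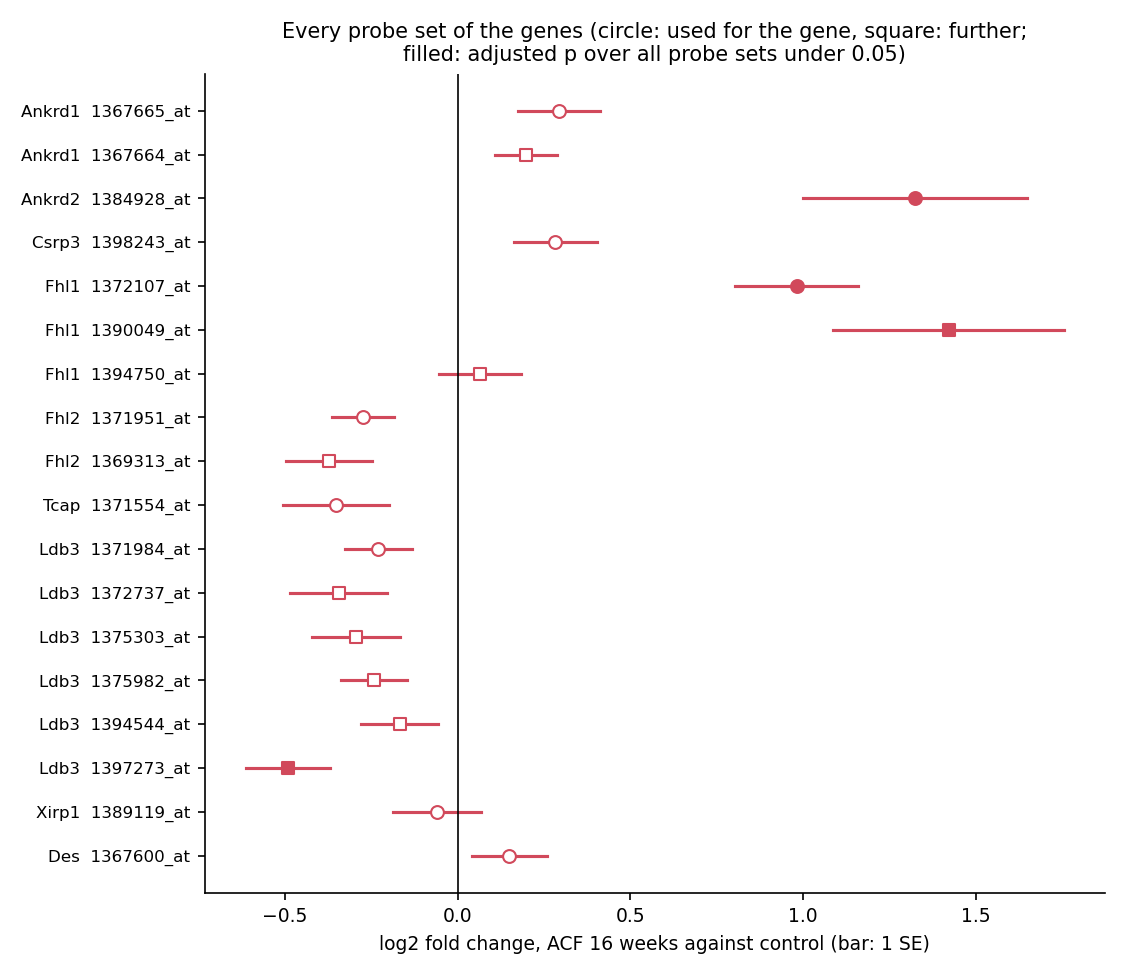
Log2 fold change at 16 weeks against control (horizontal axis, bar 1 SE) of all 18 probe sets of the genes; circles are the probe sets that stood for a gene, squares the further ones, and filled symbols passed at an adjusted p under 0.05 over 31042 probe sets. Ankrd2 and 2 probe sets of Fhl1 lie to the right at 1.32, 0.98 and 1.42, and the 6 of Ldb3 all lie to the left of 0.

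Xirp2, a relative of Xirp1 at the intercalated disc, was not measured, and Xirp1 and Des showed the smallest differences at 16 weeks. Xirp1 (gene ID 100910104) encodes an actin-binding Xin protein of the intercalated disc, and Des (gene ID 64362) the intermediate filament desmin, which links Z-discs sideways. Xirp1 ranged from 3.82 to 4.15 in control, 3.44 to 4.08 at 8 weeks, 3.80 to 4.09 at 16 weeks and 3.66 to 4.00 at 24 weeks. Its log2 fold changes were -0.22, -0.06 and -0.13 at 8, 16 and 24 weeks (SE 0.13 each). Des ranged from 6.10 to 6.47 in control, 6.24 to 6.41 at 8 weeks, 6.31 to 6.64 at 16 weeks and 6.17 to 6.60 at 24 weeks, with log2 fold changes of 0.03, 0.15 and 0.09 (SE 0.11 each). For Des at 16 weeks the 95% interval was -0.08 to 0.38, and for Xirp1 -0.33 to 0.21.

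**Figure D3:**
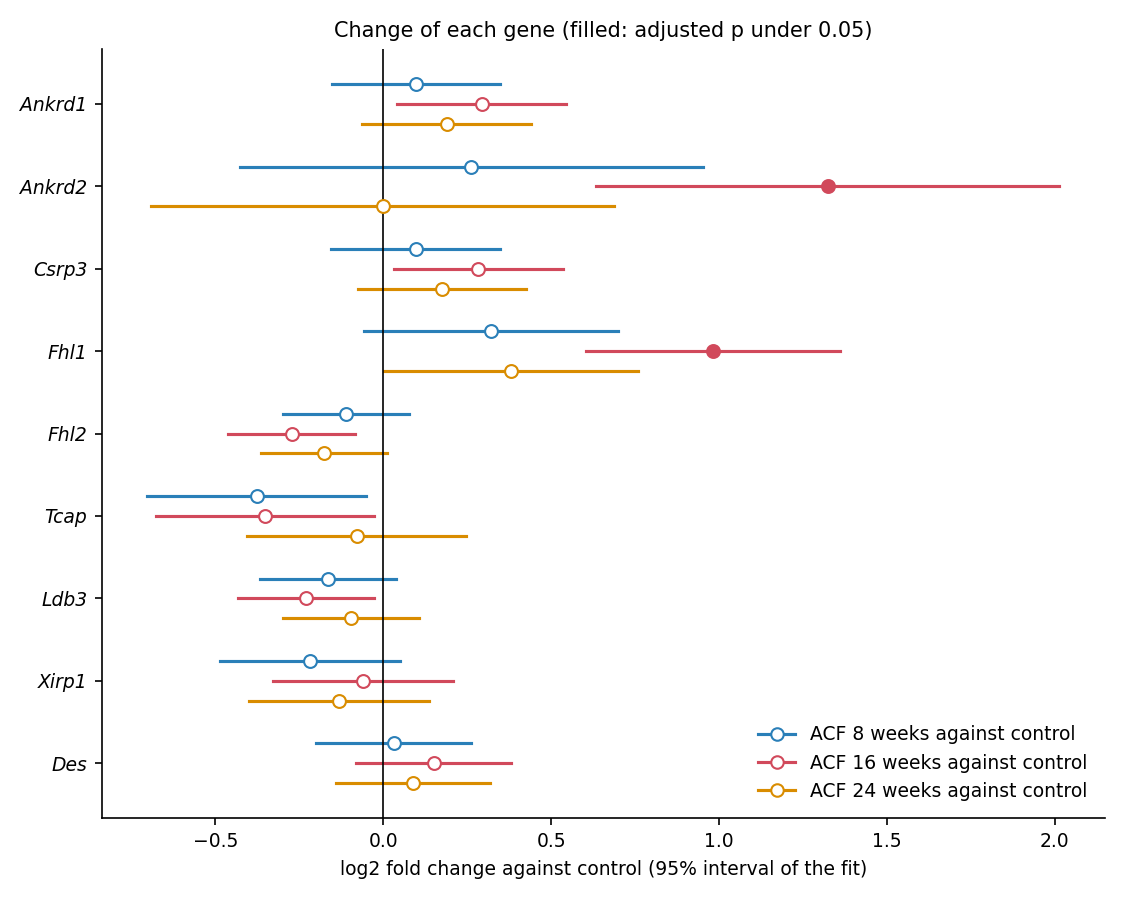
Log2 fold change against control (horizontal axis) with its 95% interval from limma for the 9 genes at 8, 16 and 24 weeks. Filled points passed at an adjusted p under 0.05, which only Ankrd2 (1.32) and Fhl1 (0.98) did, both at 16 weeks.

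Between the phases themselves, no gene passed in limma over the whole table, 0% of 14218 for 16 against 8 weeks and 0% for 24 against 16 weeks, while 1235 and 1279 genes had an unadjusted p under 0.05. By the methods' test the counts after adjustment were 0 and 1. Fhl1 was higher at 16 than at 8 weeks by 0.66 (SE 0.18, adjusted p = 0.305) with no overlap of the arrays. Ankrd2 was higher by 1.06 (SE 0.33, adjusted p = 0.368), with replicate 1 at 8 weeks above replicates 3 and 4 at 16 weeks. From 16 to 24 weeks the difference was -1.33 for Ankrd2 (adjusted p = 0.267), without overlap, and -0.60 for Fhl1 (adjusted p = 0.35), with overlap. In this fit over all 16 arrays, neither gene was shown to differ between 16 weeks and 8 or 24 weeks. By the methods' threshold with the p of limma both passed in each of the 2 comparisons, among 219 and 197 genes, and with the p of the methods' test Fhl1 passed from 8 to 16 weeks and Ankrd2 from 16 to 24 weeks, among 127 and 93 genes.

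The level of the arrays moved with these values at 16 weeks. Replicates 1 and 2, at the higher level like all control arrays, held the highest values of Ankrd2, Fhl1 and Csrp3, and replicates 3 and 4, at the lower level, held the lowest of the group. The same replicates 1 and 2 held the highest means of the macrophage markers at 16 weeks (1.57 and 1.29 above control, against 0.81 and 0.98 in replicates 3 and 4) and of the fibroblast markers (1.07 and 1.09, against 0.81 and 0.60). The part of the level and of these markers in the values of Ankrd2, Fhl1 and Csrp3 was not tested. With the 9 higher-level arrays alone, the log2 fold change at 16 weeks was 2.12 for Ankrd2 (adjusted p = 0.000564), 1.40 for Fhl1 (adjusted p = 0.00031) and 0.46 for Csrp3 (adjusted p = 0.0398). In the same arrays, 16 against 8 weeks gave 1.87 for Ankrd2 (adjusted p = 0.00843) and 1.09 for Fhl1 (adjusted p = 0.00708), each from 2 arrays at 16 and 3 at 8 weeks. With the level as a block, the values at 16 weeks against control were 1.77 for Ankrd2 and 1.21 for Fhl1. No control array lay at the lower level, so that no value within it can be had against control, and at 24 weeks the level is separated from the group only in the block fit, through the 8- and 16-week groups that hold both levels. Among arrays at the lower level, both of 16 weeks were above all 24-week arrays for Ankrd2 and not for Fhl1.

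The genes varied together over the 16 arrays to unequal degrees, given here as a description since the arrays share groups and levels. Ankrd2 and Fhl1 had a Pearson correlation of 0.87, and 0.79 once the mean of its group was subtracted from each value. Csrp3 correlated with Fhl1 (0.81, within groups 0.75), Ankrd2 (0.73, within groups 0.72) and Des (0.73, within groups 0.67), and Tcap with Ldb3 (0.67, within groups 0.51). Ankrd1 correlated with Ankrd2 at 0.42 and within groups at 0.13, although both encode ankyrin repeat proteins of the same family. Fhl1 and Fhl2, of one family of LIM-only proteins, ran against each other at -0.57 over all arrays and at 0.06 within groups.

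**Figure D4:**
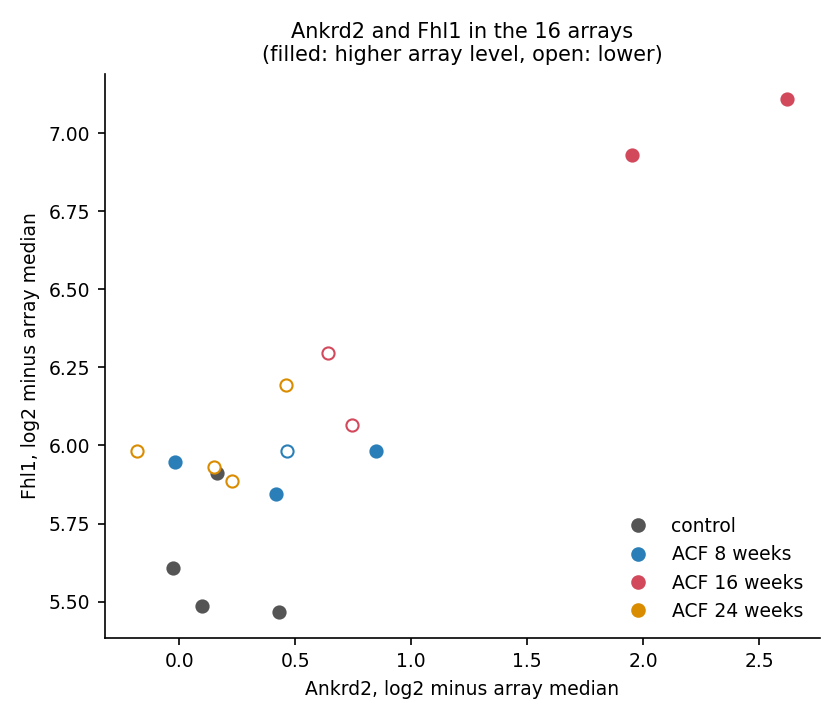
Centred log2 value of Fhl1 (vertical axis) against that of Ankrd2 (horizontal axis) in the 16 arrays, coloured by group, filled for arrays at the higher level and open for the lower. Replicates 1 and 2 at 16 weeks stand apart at the upper right, with Ankrd2 at 1.95 and 2.62, and the other 14 arrays reach at most 0.85 for Ankrd2 and 6.29 for Fhl1.

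Similar genes were sought among those whose name is not only a locus or clone identifier. Those most like Csrp3 over the 16 arrays were Ankrd23 (r = 0.88), Mllt11 (0.87) and Flnc (0.87). Ankrd23 is a muscle ankyrin repeat protein like Ankrd1 and Ankrd2, and Flnc is filamin C, a Z-disc crosslinker of actin. Those most like Ankrd1 were Rprml (0.87), Npr3 (0.87), a clearance receptor of natriuretic peptides, and Rhoa (0.86), a small GTPase of actin assembly. Those most like Tcap were Ephx1 (0.88), Cry2 (0.87), a repressor of the circadian clock, and Septin9 (0.87). Each is the highest of many correlations over arrays that share groups and levels, and is a description.

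Other genes of the same structures were read from the same fit. Of 26 further Z-disc genes measured, 3 rose at 16 weeks and none fell, as against 5.83% and 3.26% of all genes, with a median log2 fold change of 0.12 against -0.0022 over all genes. Those 2 shares are the background for each list at 16 weeks, and the lists are too short to set a share against them. Myot, myotilin, a Z-disc protein that binds alpha-actinin and filamin C, had values of -0.69, -0.10, 0.07 and 0.18 in control and 3.36, 2.11, 1.45 and 1.30 at 16 weeks. At 16 weeks the log2 difference was 2.19 (SE 0.35, adjusted p = 0.0016), and at 8 and 24 weeks it was 1.08 (adjusted p = 0.348) and 1.16 (adjusted p = 0.113) with every array above control. Filip1, a filamin-binding protein, rose by 0.71 (adjusted p = 0.0212) and Pdlim5, a PDZ and LIM protein like Ldb3, by 0.37 (adjusted p = 0.00919). Of these 3, Filip1 and Pdlim5 did not pass without centring (adjusted p = 0.0569 and 0.115), where 1 of the 26 rose and 1 fell.

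Of 10 genes for titin-linked kinases, ligases and ankyrin repeat proteins, Ankrd23 rose at 16 weeks and none fell, and the median was -0.15. Without centring, 1 rose and 2 fell. Ankrd23 had values of 1.36, 1.78, 1.62 and 2.29 in control and 3.95, 4.47, 2.77 and 2.97 at 16 weeks, without overlap. The difference was 1.78 (SE 0.37, adjusted p = 0.007). At 8 and 24 weeks Ankrd23 stood at 0.98 (adjusted p = 0.455) and 0.99 (adjusted p = 0.184). As with Ankrd2, replicates 1 and 2 held its highest values at 16 weeks.

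Of 29 genes of the costamere and intercalated disc, which couple the sarcomere to the membrane and to the next cell, 4 rose and 2 fell at 16 weeks, with a median of 0.14. Vim, the intermediate filament vimentin of mesenchymal cells, rose by 0.78 (adjusted p = 0.00669), Itgb1, the beta-1 integrin, by 0.55 (adjusted p = 0.0117), Dsg2, desmoglein 2 of the desmosome, by 0.49 (adjusted p = 0.0117) and Cdh2, N-cadherin, by 0.43 (adjusted p = 0.024). Sgca, alpha-sarcoglycan of the dystrophin complex, had values of 4.95, 4.90, 4.93 and 5.02 in control and 3.37, 4.11, 4.22 and 4.38 at 16 weeks. It fell by 0.93 (SE 0.16, adjusted p = 0.00298), and Itga7, the laminin-binding alpha-7 integrin of muscle, fell by 0.48 (adjusted p = 0.0125). Without centring, 1 of the 29 rose and 4 fell, so that the balance of this list depends on the scaling, and Itgb1 and Dsg2 then had adjusted p of 0.0665 and 0.0686. Cdh2 and Itga7 were named after their values were seen, to complete the counts.

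Of 9 other LIM domain genes, Zyx, zyxin of stress fibres and focal adhesions, rose at 16 weeks by 0.66 (adjusted p = 0.0498), and it missed the threshold without centring (adjusted p = 0.0852). Csrp2, a paralogue of Csrp3, had a larger mean difference of 1.89 and missed it (SE 0.58, adjusted p = 0.0518); it was singled out after its value was seen. Of 17 regulators of SRF, MRTF, YAP and calcineurin signalling, Tead1 rose by 0.37 (adjusted p = 0.0385) and none fell, a count near the 5.83% of all genes that rose, with a median of -0.03, while without centring none rose and 2 fell. Tead1 encodes a transcription factor that binds MCAT motifs, and it did not pass without centring (adjusted p = 0.162) or within the higher-level arrays (0.175).

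Of 15 transcripts known to respond to load, 7 rose and none fell at 16 weeks, with a median of 0.86, and 15 of 15 had higher means than control. Ccn2, a matricellular growth factor, rose by 2.36 (SE 0.37, adjusted p = 0.00159), Nppa, atrial natriuretic peptide, by 2.21 (SE 0.45, adjusted p = 0.00664), Myc by 1.49 (adjusted p = 0.0117) and Lgals3, galectin 3 of macrophages, by 1.39 (adjusted p = 0.00211). Nppa ranged from 4.20 to 6.90 in control and 7.66 to 8.26 at 16 weeks. At 24 weeks 3 of the 15 rose, Atf3, named for the count (2.30, adjusted p = 0.0492), Ccn2 (1.70, adjusted p = 0.0418) and Myc (1.56, adjusted p = 0.0398), as against 0.612% of all genes. With arrays centred on the cardiomyocyte markers, or with the level as a block, none of the 15 passed at 24 weeks. In the CH phase none of the 6 related lists held a gene that passed in limma, and the methods' test with adjustment called no gene of the whole table. At an unadjusted p under 0.05 in limma, the load-responsive list then held 9 genes and the other lists 1 to 4, against 1112 of all 14218 genes. At 24 weeks the other 5 lists held none that passed in limma or by the methods' test with adjustment. They held 2 to 6 genes each at an unadjusted p under 0.05 in limma, against 2306 of all 14218 genes.

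**Figure D5:**
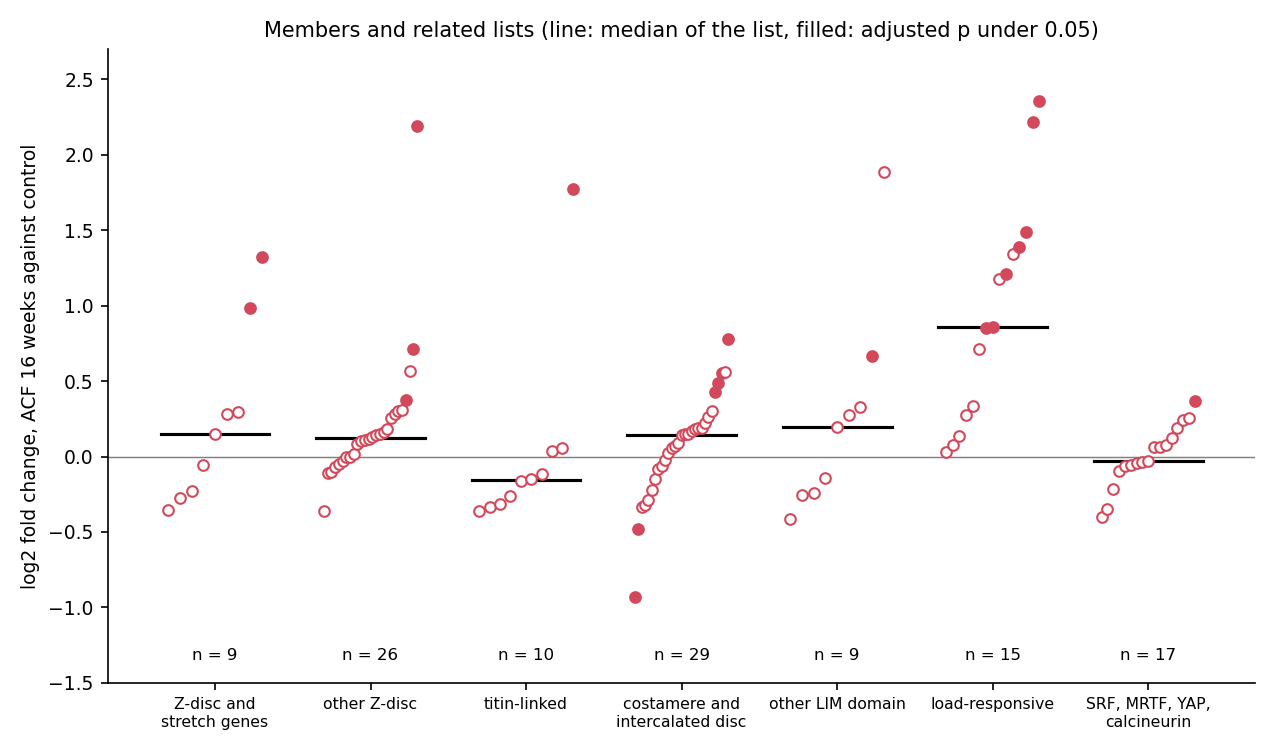
Log2 fold change at 16 weeks against control (vertical axis) of each measured gene in the Z-disc and stretch-response set (n = 9) and 6 related lists, ordered within a list; lines are medians and filled points passed at an adjusted p under 0.05. The load-responsive list sits highest with a median of 0.86, and the other medians lie between -0.15 and 0.19.

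Markers of cell types were read beside these values, since in whole tissue fewer cells of a type and less RNA per cell cannot be told apart. None of 14 ventricular cardiomyocyte markers passed at 16 weeks in limma, 2 having an unadjusted p under 0.05, against 3459 of all 14218 genes. The mean shift per array of these cardiomyocyte markers ranged from -0.23 to 0.05 at 16 weeks and from -0.04 to 0.04 in control. These markers are a weak reading of the cells, since 11 of the 14 had a control mean above that of Ankrd1 (median 7.94, against 7.74 centred) and so lay close to the highest values of the arrays, and whether the signal there still follows the amount of RNA was not tested. None of 7 skeletal muscle markers passed, 1 having an unadjusted p under 0.05, with array means from -0.13 to 0.16 at 16 weeks and from -0.02 to 0.02 in control. All of these skeletal muscle markers but Myh1 lay below the array median on every array. Ankrd2 and Myot, both well known from skeletal muscle, rose, and the part of skeletal muscle RNA in their values was not tested. Of 12 macrophage and leukocyte markers 10 rose (array means from 0.81 to 1.57, against -0.12 to 0.16 in control), and of 9 fibroblast markers 5 rose, Col1a2, Col3a1, Dcn, Fn1 and Postn (0.60 to 1.09, against -0.18 to 0.45). Of 6 endothelial markers Vwf rose, of 7 smooth muscle markers none passed (2 at an unadjusted p under 0.05), and of 4 atrial markers Nppa rose. The array means of the atrial list ran from -1.64 to 1.98 in control and from -0.54 to 3.16 at 8 weeks. They ran from -0.17 to 1.39 at 16 weeks and from -0.10 to 3.50 at 24 weeks. Nppa is in both the atrial list and the load-responsive list. The part of the shift in macrophage and fibroblast RNA in the values of Ankrd2 and Fhl1 was not tested.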

How the data were processed

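RNA of the left ventricle was hybridised to 1 array for each of 16 rats. The deposited log2 values were made by the authors with RMA (Affymetrix Expression Console 1.2, per the labels), and the probe set names are those of another rat array than the methods name. The annotation gave 1 symbol to 20832 of all 31099 probe sets (57 of them controls), several to 436 and none to the others. Each array was centred on its median over all probe sets, and a gene was represented by its probe set of highest mean. Groups were compared with limma 3.58.1 in R 4.3.3, over all 16 arrays with 1 mean per group and Benjamini-Hochberg adjustment over 14218 genes (threshold 0.05), and single genes with the exact permutation test. The script was tested on simulated data. The number of arrays limits the precision.

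The genes and lists were chosen with earlier results of these data known. All 10 genes were named, with every probe set. Of each related list up to 4 genes with the smallest adjusted p were named among those that passed against control. The lists were other Z-disc proteins, titin-linked proteins, costamere and intercalated disc, other LIM domain genes, load-responsive transcripts, and regulators of SRF, MRTF, YAP and calcineurin, with markers of 7 cell types. For Ankrd1, Csrp3 and Tcap the 3 genes of highest Pearson correlation were named, leaving out genes named only by a locus or clone identifier. Besides leaving out each array, 16 alternatives were computed, of scaling, array level, test, variance model, probe set choice and threshold. Figures were drawn with matplotlib 3.10.9.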

Additional observations from a re-analysis of the deposited data

How the results depend on the processing

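Of the log2 fold changes of the 9 genes in 5 comparisons under all alternatives, 1374 kept direction and side of the threshold, 20 reversed, 17 passed only under the alternative and 6 no longer passed. None of the values that reversed had passed the test, and the cause was not tested. For arrays as deposited they were Ankrd1 (-0.017), Csrp3 (-0.031) and Des (-0.12) at 24 weeks, Des at 8 weeks (-0.026) and Tcap from 8 to 16 weeks (-0.036). Tcap from 8 to 16 weeks also reversed with the level as a block (-0.052) and centred over genes (-0.0065), a setting chosen after seeing the data. Xirp1 at 16 weeks reversed when centred on cardiomyocyte markers (0.0032). Ankrd2 at 24 weeks became 0.0035 by cyclic loess, 0.016 on cardiomyocyte markers, 0.89 with the level as a block and 0.011 with array weights. Leaving out 1 array gave -0.10 to 0.11 for Ankrd2 at 24 weeks, -0.13 to 0.020 for Des from 16 to 24 weeks, -0.041 to 0.079 for Des at 8 weeks and -0.13 to 0.21 for Tcap from 8 to 16 weeks.

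Of the 9 genes, 4 passed at 16 weeks as deposited (Ankrd2, Fhl1, Fhl2 and Tcap). By the methods' test with adjustment over genes, which the methods do not state, 0 passed (adjusted p = 0.195 for Ankrd2 and 0.122 for Fhl1). In limma on only the 8 arrays compared 1 passed, Fhl1 (adjusted p = 0.023), while Ankrd2 did not (0.059). When 1 array was left out 1 to 2 passed, and by fold change above 1.5 with an unadjusted p under 0.05 there were 2. Fhl2 also passed with trended and robust variance (-0.27), array weights (-0.27), the upper 50% of genes (-0.27) and centring over genes (-0.32). At 24 weeks 1 passed as deposited (Fhl2). From 8 to 16 weeks 2 passed within the higher-level arrays and 2 by fold change above 1.5 with an unadjusted p under 0.05, and by that threshold 2 from 16 to 24 weeks. With the p of the methods' test in that threshold, chosen after seeing the data, these were 1 (Fhl1) and 1 (Ankrd2), and genes called were 189 at 8, 763 at 16 and 364 at 24 weeks, 127 from 8 to 16 and 93 from 16 to 24 weeks.

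Genes called at 8 weeks, 8 in the fit used, numbered 1 as deposited, 1 on cardiomyocyte markers, 30 with the level block, 46 at the higher level, 2 with the replicate block, 0 by the methods' test, 72 with 8 arrays, 186 with array weights, 16 in the upper 50% of genes, 5 with mean probe sets, 225 by fold change and 13 centred over genes. At 16 weeks, 1292 became 220 by the methods' test. At 24 weeks, 129 became 1675 as deposited (4.84% higher), 45 on cardiomyocyte markers, 2 with the level block, 0 by the methods' test, 829 with array weights, 79 in the upper 50% and 426 by fold change. From 8 to 16 weeks, 0 became 236 at the higher level, 1 each with trended and robust variance, array weights and the upper 50%, and 219 by fold change. From 16 to 24 weeks, 0 became 1 by the methods' test, 1 with 8 arrays, 4 with all probe sets and 197 by fold change. Leaving out 1 array gave 1 to 23 at 8 weeks, 646 to 1570 at 16 weeks, 5 to 558 at 24 weeks, 0 to 9 from 8 to 16 weeks and 0 to 6 from 16 to 24 weeks. The lowest counts at 16 and 24 weeks were those without control replicate 1, and the highest those without ACF 16 weeks replicate 4 and without ACF 24 weeks replicate 4. Counts also moved by over 1.5 times at 16 weeks without control replicates 2 (818) or 3 (765) or ACF 16 weeks replicates 1 (751) or 2 (855). At 24 weeks they did so without control replicates 2 (6) or 3 (23), ACF 16 weeks replicate 1 (195), or ACF 24 weeks replicates 1 (78), 2 (24) or 3 (24).

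The replicate numbers did not pair the arrays (correlation of deviations of same-numbered arrays -0.32 to 0.24, 6 of 24 over 0.1). With the replicate block, Ankrd2 at 16 weeks had 1.32 (adjusted p = 0.0155) and Fhl1 0.98 (0.00488). No value at 24 weeks could be had within the higher level, which holds no such array, and Ankrd2 was not in the upper 50% of genes.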
